A study of Homo sapiens with 12 samples.

Results

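hsa-miR-103a-3p and hsa-miR-107 (here miR-103a-3p and miR-107) are 2 sister miRNAs known to repress DICER1, the messenger RNA of the enzyme that makes them. They were followed through 12 small-RNA libraries in which that enzyme had been altered. The members were taken by name, 2 entries of the 1346 miRNA entries in the count tables. The rule used no measured value, but earlier results of these data were known when the members were chosen. The cells were HCT116, a human colorectal carcinoma line, and the protocol was AQ-seq, which sequences small RNAs with less ligation bias than usual methods. They fell into 6 groups of 2, each named in the labels for the rescue DICER it carried: wild type (WT), R821E, R821A, ΔPAZ helix, E5 and A5. R821E puts a glutamate and R821A an alanine in place of the same arginine, and the name ΔPAZ helix marks the loss of a helix in the PAZ domain. The sources used here do not give the meaning of E5 and A5, the way the endogenous DICER was removed, the promoter of the rescue protein, or whether a group is a single clone. The labels do not say whether the 2 libraries of a group are separate cultures, and p-values then measure no more than the spread between these libraries, which may be technical.

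DICER and DROSHA divide the work on a miRNA hairpin. DROSHA frees the hairpin from its primary transcript and so sets the 5′ end of the 5p strand, while DICER removes the loop and so sets the 5′ end of the 3p strand. A miRNA finds its targets mainly through the seed, bases 2 to 8 from its 5′ end, so in a 3p miRNA the seed is fixed by the cut of DICER. miR-103a-3p and miR-107 are 3p strands. They are known for repressing DICER1 in tumour cells and for acting on insulin signalling through caveolin-1.

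The mature sequences, taken from RefSeq (GRCh38.p14), are shown first because the pair differ so little, with the seed in capitals.
miR-103a-3p: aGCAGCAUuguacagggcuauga
miR-107: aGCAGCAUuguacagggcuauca
miR-16-5p: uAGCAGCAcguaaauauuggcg
miR-103a-2-5p: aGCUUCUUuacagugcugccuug
Both members are 23 bases long and differ at 1 base, G22C with miR-103a-3p as the reference and positions counted from the 5′ end. The first 21 bases are the same, so a read that stops before base 22 cannot be given to either, and the sources used here do not say how such reads were counted. Of the 1179 entries with a RefSeq sequence, these 2 alone had the seed GCAGCAU. miR-16-5p is shown because it carries the same AGCAGC run 1 base further from its 5′ end, the mark of the wider miR-15 and miR-107 group. That run stood within the first 8 bases of 11 of the 1179 entries (0.933%). miR-103a-2-5p is the partner strand of miR-103a-3p.

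The members come from 3 hairpins, shown with the mature strands that RefSeq lists in capitals.
MIR103A1: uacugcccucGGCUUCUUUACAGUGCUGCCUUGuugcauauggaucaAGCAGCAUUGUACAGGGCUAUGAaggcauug
MIR103A2: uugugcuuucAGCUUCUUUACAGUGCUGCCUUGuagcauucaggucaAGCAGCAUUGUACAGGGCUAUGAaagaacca
MIR107: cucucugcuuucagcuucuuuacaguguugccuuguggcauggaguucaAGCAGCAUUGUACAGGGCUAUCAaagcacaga
miR-103a-3p is made from both MIR103A1 (chr5:168560896-168560973, minus strand) and MIR103A2 (chr20:3917494-3917571, plus strand), and its counts cannot be divided between them. miR-107 comes from MIR107 (chr10:89592747-89592827, minus strand). Each hairpin lies on the sense strand within a gene for a pantothenate kinase, the first enzyme of coenzyme A synthesis: MIR103A1 in PANK3, MIR103A2 in PANK2 and MIR107 in PANK1. By GENCODE 29 (GRCh38) none of the 3 overlapped an exon of the protein-coding transcripts that span it (1, 6 and 3 transcripts), so all are intronic there. In MIR103A1 and MIR103A2, 14 bases lie between the 5p and the 3p strand.

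The match to the seed, ATGCTGC in the DNA letters of the messenger, occurs 5 times in the 4270 bases of the DICER1 3′ UTR, searched on the transcript strand only. The sites are shown because they tie these miRNAs to the enzyme under study, with the match in capitals.
Site at 1034: atcacacctaaaatATGCTGCagatttta
Site at 1635: tgatgcttcgtggaATGCTGCatttatat
Site at 2839: ccgcagtcctaactATGCTGCgttttata
Site at 4110: atatttaccatcacATGCTGCagctgttt
Site at 4162: ttcatacagtaatcATGCTGCagaaattt
Positions count from the first base of the 3′ UTR, and the matches span chr14:95089458-95089464 for the first to chr14:95086330-95086336 for the last, on the minus strand (GENCODE 29, GRCh38). An A follows the match in 4 of the 5, the form called an 8mer site. Of 1385 genes with a 3′ UTR at least as long, read over the same first 4270 bases, 375 (27.1%) held the match and 1, DICER1 itself, held it 5 times. A match is a description of the letters. The sources used here do not say whether the rescue DICER carried this UTR, and DICER levels were not analysed here.

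The libraries held 144067 to 255296 miRNA counts, a depth at which 3 counts equal 11.8 to 20.8 CPM, the usual count normalised to a common library total. Strands named 3p made up 24.9% and 27.5% of the counts in WT, 11.1% and 11.9% in R821E, and 18.8% to 27.2% in the other libraries. There were 22.4 and 25.9 miRNA counts per spike-in count in WT and 13.4 to 21.5 in the mutants, so levels are given on 2 scales. CPM below are TMM-scaled, which sets a miRNA relative to most other miRNAs of its library. The spike-in scale gives counts per 1000 counts of the RNAs added from outside. Whether each library received the same amount of these RNAs was not tested. Of the markers of the line's epithelial origin, miR-200b-3p was present at 87 to 374 counts a library and miR-200a-3p at 26 to 252. miR-192-5p had 19 to 41 counts and miR-194-5p 5 to 46, while miR-200c-3p and miR-141-3p were close to absent (1 to 15 and 2 to 10 counts). Among markers of other cell types, miR-223-3p, miR-124-3p, miR-133a-3p and miR-122-5p did not exceed 2 counts. Others were present, with 14 to 117 counts of miR-142-3p (leukocytes), 14 to 121 of miR-126-3p (endothelium), 33 to 142 of miR-145-5p (fibroblasts and muscle) and 27 to 45 of miR-451a (erythroid cells). The 3 fibroblast and endothelial markers summed to 244 to 333 unscaled CPM in R821E and 760 to 1085 in WT, the 4 leukocyte markers to 125 to 148 and 295 to 443, and the 6 epithelial markers to 850 to 1000 and 2484 to 2572. The 2 erythroid markers, by contrast, summed to 174 to 305 in R821E and 142 to 191 in WT, and the 2 neuronal markers, nearly all miR-9-5p, to 868 to 972 and 526 to 562. The first 3 of these lists were lower in R821E like the 2 members, whose levels below are on other scales. Unscaled CPM are shares of all miRNA counts, of which miR-21-5p took 58.0% and 54.0% in R821E and 37.7% and 43.2% in WT. The part of these lists in the results was not tested.

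miR-103a-3p was the more abundant of the pair in every library, with 4.35 to 8.29 counts for each count of miR-107. Its level in WT was 4470 and 2400 CPM (replicates 1 and 2). In E5 it was 1501 and 2829 CPM, in A5 1855 and 1809 CPM, and in ΔPAZ helix 1687 and 1811 CPM. In R821E it was 1295 and 1002 CPM, and in R821A 3014 and 2310 CPM. The R821E libraries were the lowest of the 12 and did not overlap any other group, and WT replicate 1 stood above all the rest. In R821E against WT 24.1% of the 374 entries tested were called lower. The share of entries with both R821E libraries lowest was not counted.

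miR-107 had the same extremes. Its level was 808 and 343 CPM in WT and 270 and 651 CPM in E5. A5 had 339 and 365 CPM, and ΔPAZ helix 346 and 405 CPM. In R821E it was 171 and 121 CPM and in R821A 470 and 381 CPM. The values for R821E rest on 28 and 14 counts, against 49 to 233 counts in the other libraries. Here too the R821E libraries lay below all others, an order whose share over all entries was not counted. Each of the other 4 mutants overlapped WT.

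**Figure D1:**
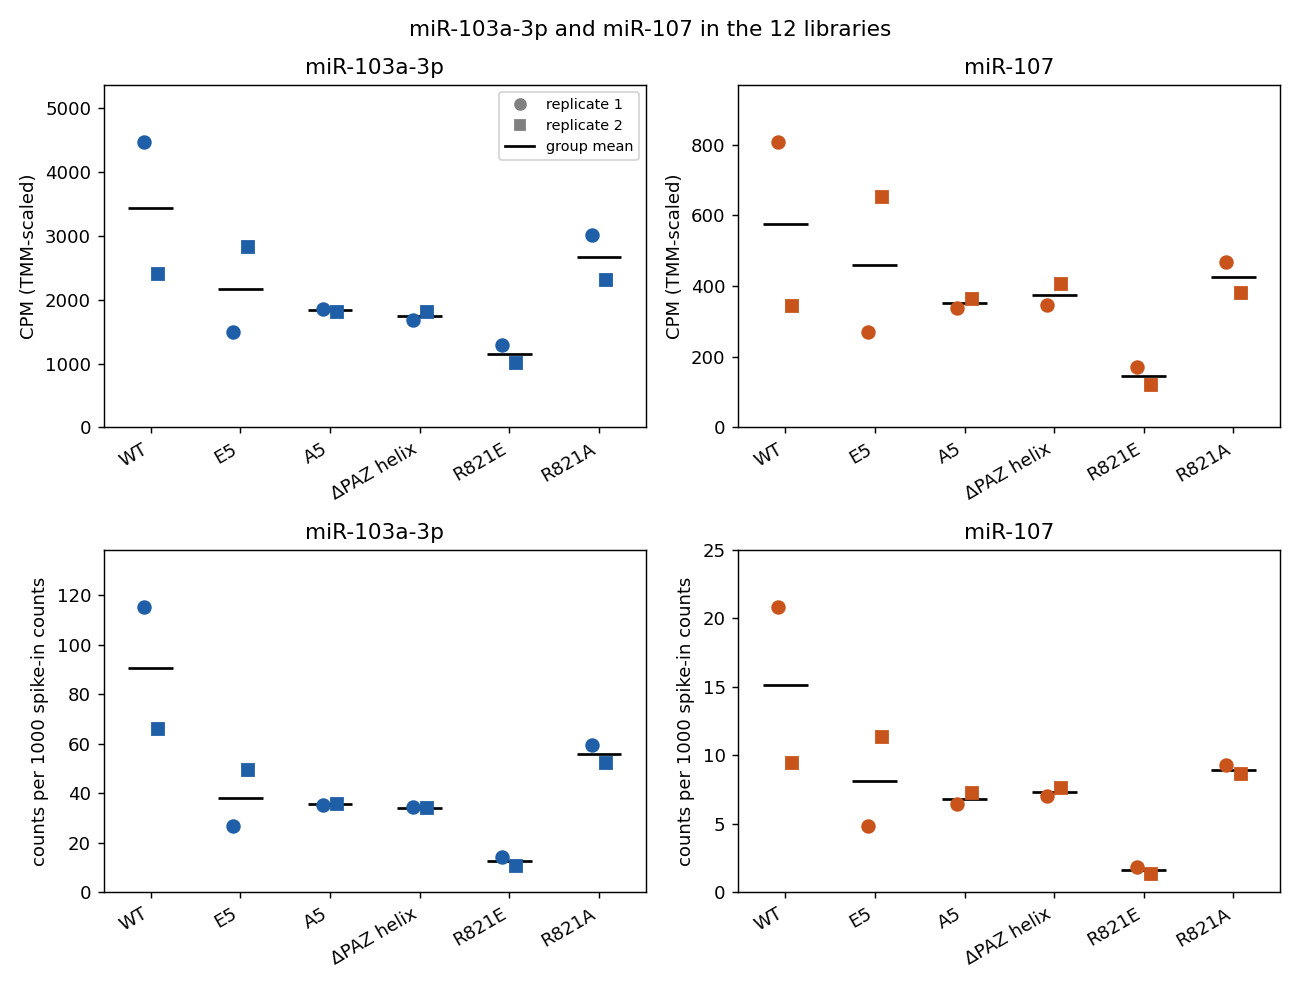
Level of miR-103a-3p (left) and miR-107 (right) in each of the 12 libraries, by group, as TMM-scaled CPM (top) and as counts per 1000 spike-in counts (bottom). Points are libraries, circles replicate 1 and squares replicate 2, and lines are group means. The R821E libraries are the lowest in every panel (1295 and 1002 CPM for miR-103a-3p), and the 2 WT libraries stand far apart.

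By mean, miR-103a-3p ran from WT (3435 ± 1464 CPM, SD, n = 2) through R821A (2662 ± 498), E5 (2165 ± 939), A5 (1832 ± 32.7) and ΔPAZ helix (1749 ± 87.4) to R821E (1149 ± 207). Each neighbouring pair in this order had overlapping libraries except ΔPAZ helix and R821E. For miR-107 the order was WT (576 ± 328), E5 (461 ± 269), R821A (425 ± 62.5), ΔPAZ helix (376 ± 41.2), A5 (352 ± 18.1) and R821E (146 ± 35.4), and A5 and R821E were the only neighbours that did not overlap.

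The spread between the libraries of a group was wide for these miRNAs in WT and in E5. The higher WT library exceeded the lower by 1.86-fold for miR-103a-3p and 2.35-fold for miR-107, and the median over the 250 entries averaging 100 CPM or more was 1.26-fold. In E5 the values were 1.89-fold and 2.41-fold, with a median of 1.23-fold. In A5 they were 1.03-fold and 1.08-fold, below the median of 1.14-fold. The 2 members deviated in the same direction from their group mean in 5 of the 6 groups, A5 being the exception.

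Both members fell in R821E against WT. miR-103a-3p fell by 1.58 ± 0.338 on the log2 scale (SE, adjusted p = 0.00385 by the quasi-likelihood test of edgeR), 2.98-fold lower. miR-107 fell by 1.95 ± 0.485 (adjusted p = 0.00640, edgeR), 3.88-fold lower. These are 2 of 2 members, in a comparison in which 24.1% of the 374 entries tested were called lower and 23.8% higher, 47.9% in all (adjusted p under 0.05). In bulk libraries, fewer cells holding a miRNA and less of it in each cell cannot be told apart. From the lowest fold change upward, miR-107 stood at place 13 and miR-103a-3p at place 29 of the 374. Without WT replicate 1 the values were -1.01 for miR-103a-3p (adjusted p = 0.0182, edgeR) and -1.15 for miR-107 (adjusted p = 0.0459, edgeR), and without R821E replicate 2 the call for miR-107 was lost (-1.68, adjusted p = 0.0715, edgeR).

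Relative to the spike-ins the distance was larger. miR-103a-3p stood at 115 and 66.01 counts per 1000 spike-in counts in WT and at 14.2 and 10.8 in R821E. miR-107 stood at 20.8 and 9.44 in WT and at 1.87 and 1.30 in R821E. The log2 fold changes were -2.86 ± 0.304 (adjusted p = 3.22e-06, edgeR) and -3.23 ± 0.442 (adjusted p = 2.68e-05, edgeR), 7.25-fold and 9.38-fold lower, on a scale where 60.4% of entries were called lower and the median of all entries was -1.38. Both calls held without any 1 of the 4 libraries on this scale (-3.20 to -2.40 for miR-103a-3p and -3.68 to -2.54 for miR-107).

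Both members were also lower with glutamate than with alanine at residue R821. This comparison shares the R821E libraries with the one against WT, and all comparisons with WT share its 2 libraries. In R821E against R821A the log2 fold change of miR-103a-3p was -1.21 ± 0.336 (edgeR, adjusted p = 0.0174) and that of miR-107 -1.52 ± 0.493 (edgeR, adjusted p = 0.0292). In this comparison 41.4% of entries were called and 19.5% were called lower, and 48.9% were lower with spike-in library sizes, which gave the 2 members -2.16 and -2.47 (adjusted p = 5.35e-05 and 4.28e-04, edgeR). With fewer libraries both calls held on the spike-in scale (-2.37 to -1.98 and -2.77 to -2.25) but not on the TMM scale. miR-107 lost its call without any 1 of the 4 libraries (adjusted p = 0.0653 to 0.178, edgeR) and by limma-voom (adjusted p = 0.0599), and miR-103a-3p kept its call only without R821A replicate 2 (adjusted p = 0.0410 to 0.119 over the 4, edgeR).

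In R821A against WT neither member passed. The log2 fold changes were -0.37 ± 0.321 for miR-103a-3p (adjusted p = 0.775, edgeR) and -0.44 ± 0.411 for miR-107 (adjusted p = 0.813, edgeR), in a comparison with 3.21% of entries called and 2.94% called lower. On the spike-in scale, where 4.28% were called lower, they were -0.70 and -0.76 (adjusted p = 0.180 and 0.278, edgeR), miR-103a-3p passing there without WT replicate 2 (-1.04, adjusted p = 0.0342, edgeR). Both R821A libraries, at 59.4 and 52.3 counts of miR-103a-3p per 1000 spike-in counts, lay below the WT libraries. Without WT replicate 1 both TMM values changed sign, to 0.16 and 0.32.

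In E5, A5 and ΔPAZ helix neither member passed the test on the TMM scale. For miR-103a-3p E5 had a log2 fold change of -0.66 ± 0.323, A5 of -0.91 ± 0.325 and ΔPAZ helix of -0.97 ± 0.326 (adjusted p = 0.267, 0.266 and 0.267, edgeR). Entries called were 9.09% in E5 (6.68% lower) and 0.267% each in A5 and ΔPAZ helix, so few entries of any kind passed in the last 2. For miR-107 the values were -0.31 ± 0.412, -0.71 ± 0.418 and -0.62 ± 0.419 (adjusted p = 0.702, 0.448 and 0.576, edgeR), and all 3 turned positive without WT replicate 1 (0.45, 0.04 and 0.14). That of E5 also turned positive without E5 replicate 1 (0.20).

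On the spike-in scale miR-103a-3p was called lower in these 3 mutants as well. Its values were 26.9 and 49.3 counts per 1000 spike-in counts in E5, 35.2 and 35.8 in A5, and 34.3 and 33.9 in ΔPAZ helix, all below the 66.01 of the lower WT library. The log2 fold changes were -1.25 ± 0.283, -1.35 ± 0.284 and -1.41 ± 0.286 (adjusted p = 0.00611, 0.00946 and 0.0124, edgeR), where 27.3%, 14.7% and 13.1% of entries were called lower. Leaving out WT replicate 1 kept these 3 calls, at -0.79, -0.90 and -0.95 (adjusted p = 0.0377, 0.0427 and 0.0336, edgeR). Each call was lost when a mutant library was left out, without E5 replicate 1 (adjusted p = 0.0534) or either library of A5 or ΔPAZ helix (adjusted p = 0.0747 to 0.123, edgeR). miR-107 had -0.89, -1.15 and -1.06 (adjusted p = 0.0943, 0.0608 and 0.0872, edgeR) and did not pass, but without WT replicate 2 it passed in all 3 (-1.34, -1.61 and -1.51, adjusted p = 0.0128, 0.00959 and 0.0223, edgeR) and in E5 also without E5 replicate 2 (-1.65, adjusted p = 0.0188, edgeR). Without WT replicate 1 its values were -0.20, -0.47 and -0.37. Its libraries overlapped, E5 replicate 2 (11.3 counts per 1000 spike-in counts) lying above WT replicate 2 (9.44).

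Taking the 10 mutant libraries against WT, miR-103a-3p averaged 35.2 counts per 1000 spike-in counts against 90.6, and 10 of 10 lay under the lower WT library (exact permutation test, two-sided, p = 0.0303, the smallest that the 66 splits allow). miR-107 averaged 6.55 against 15.1, and 9 of 10 lay under the lower WT library (exact permutation test, p = 0.0606). Adjusted over these 2 tests both p-values are 0.0606 (exact permutation, Benjamini-Hochberg). The tests shuffle single libraries that came as groups of 2, so their p-values are too small where partners resemble each other. All miRNA counts together split the same way, at 22.4 and 25.9 per spike-in count in WT and 13.4 to 21.5 in the mutants. The order is thus not particular to miR-103a-3p, and the share of single entries with it was not counted.

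The direct comparison of E5 with A5 passed for neither member. E5 minus A5 was 0.25 ± 0.325 for miR-103a-3p and 0.40 ± 0.426 for miR-107 on the log2 scale (adjusted p = 0.818 and 0.795, edgeR). No entry passed in that comparison (0% by edgeR, with 36 entries at unadjusted p under 0.05, and 0 by DESeq2 and by limma-voom), and both values changed sign without E5 replicate 2 (-0.28 and -0.38).

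**Figure D2:**
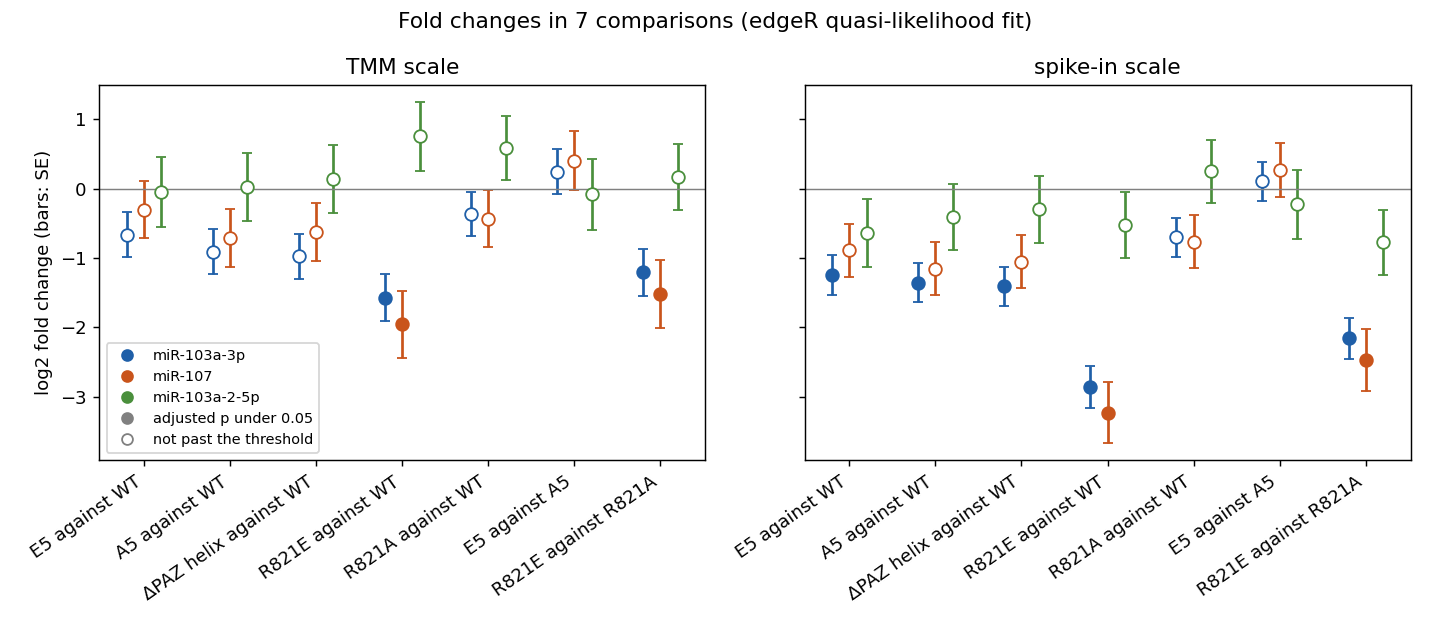
Log2 fold changes of miR-103a-3p, miR-107 and miR-103a-2-5p in the 7 comparisons, on the TMM scale (left) and the spike-in scale (right). Points are edgeR estimates, bars are SE, and filled points have an adjusted p under 0.05. Both members pass on both scales in R821E against WT (-1.58 and -1.95 on the TMM scale) and against R821A, and miR-103a-3p also passes in E5, A5 and ΔPAZ helix on the spike-in scale.

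The partner strand took another course. miR-103a-2-5p, the 5p strand of the MIR103A2 hairpin, was counted 9 to 32 times a library. Its level was 101 and 34.3 CPM in WT and 104 and 130 CPM in R821E, so the lower R821E library lay only just above the higher WT library. Per 1000 spike-in counts the R821E libraries, at 1.14 and 1.39, lay between the WT libraries (2.59 and 0.944). It did not pass the test in any of the 7 comparisons. In R821E its log2 fold change was 0.75 ± 0.496, or -0.52 ± 0.481 with spike-in library sizes (adjusted p = 0.225 and 0.369, edgeR).

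The ratio of the strands is free of scaling. For each count of miR-103a-2-5p there were 44.4 and 69.9 counts of miR-103a-3p in WT and 30.2 and 35.7 in E5. A5 had 37.2 and 20.9, and ΔPAZ helix 28.8 and 19.4. R821E had 12.5 and 7.73, the lowest of all, and R821A 26.9 and 25.2. WT libraries were the 2 highest and R821E libraries the 2 lowest, an order whose share over the hairpins was not counted. The log2 ratio of miR-103a-2-5p to miR-103a-3p shifted toward 5p by 2.49 ± 0.399 in R821E against WT (limma over 82 hairpins, adjusted p = 3.33e-04) and by 1.42 ± 0.399 against R821A (limma, adjusted p = 0.0141). Against WT 47.6% of the 82 hairpins were called and 32.9% toward 5p, and against R821A 32.9% and 26.8%. Against R821A the call was lost without R821E replicate 2, R821A replicate 1 or R821A replicate 2 (adjusted p = 0.114, 0.0843 and 0.0520, limma), and against WT it held without any 1 library (2.15 to 2.84).

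In the other mutants the shift was 1.23 in ΔPAZ helix, 1.08 in R821A, 1.00 in A5 and 0.77 in E5, each ± 0.399 (adjusted p = 0.248, 0.243, 0.447 and 0.345, limma). In E5 3.66% of hairpins were called. In A5, ΔPAZ helix and R821A 0% were called by limma, with 8, 11 and 8 hairpins at unadjusted p under 0.05. This test and its minimum of 10 counts were chosen after the counts were seen. The 5p entry comes from MIR103A2 alone and miR-103a-3p from MIR103A1 too, so the ratio is not that of a single hairpin.

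The pair was also set against the 3p strands alone. Of 1000 counts of 3p strands, miR-107 included, the pair together took 22.0 and 11.7 in WT. It took 9.44 and 7.57 in R821E and 9.50 to 16.7 in the other libraries. The group means were 16.8 in WT, 13.1 in E5, 13.0 in R821A, 10.7 in A5, 9.93 in ΔPAZ helix and 8.50 in R821E. For miR-103a-3p alone R821E, at 8.33 and 6.75, overlapped ΔPAZ helix (8.03 and 8.33) and E5 (8.05 and 13.6), while WT had 18.6 and 10.2. For miR-107 alone R821E, at 1.10 and 0.815, lay below all other libraries (1.45 to 3.37). These R821E values rest on 28 and 14 counts, and the share of 3p entries with this order was not counted.

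Summed, the pair do not depend on how reads shared by the 2 entries were divided, unless such reads were counted for both. The sum was lowest in R821E (1294 ± 243 CPM, SD, n = 2), then 2125 ± 129 in ΔPAZ helix, 2184 ± 14.6 in A5, 2626 ± 1209 in E5, 3088 ± 560 in R821A and 4010 ± 1792 in WT. It thus ran in the order of miR-103a-3p, which supplied most of it.

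As a share of the pair's counts, miR-107 averaged 11.2% ± 0.635 in R821E (SD, n = 2), 13.8% ± 0.483 in R821A and 13.9% ± 1.97 in WT. It averaged 16.1% ± 0.939 in A5, 17.0% ± 2.43 in E5 and 17.7% ± 0.871 in ΔPAZ helix. The lowest library was R821E replicate 2 (10.8%, 95% Wilson interval 6.52% to 17.3%) and the highest E5 replicate 2 (18.7%, 16.2% to 21.5%), intervals of counting error only. Whether miR-107 moved by another amount than miR-103a-3p was tested on their log2 ratio, in a limma fit over 88 pairs of entries that share a seed. None of the 7 comparisons passed, where 26.1% of the pairs were called in E5, 5.68% in A5, 22.7% in R821A, 2.27% in E5 against A5 and 9.09% in R821E against R821A. In R821E against WT the ratio of miR-107 to miR-103a-3p changed by -0.32 ± 0.279 (95% interval -0.93 to 0.29, adjusted p = 0.394, limma), where 27.3% of the pairs were called. The largest estimate was 0.42 in ΔPAZ helix (95% interval -0.19 to 1.02, adjusted p = 0.489, limma, with 7.95% called). The intervals rest on the spread between libraries, and a difference of a size within them may have gone undetected.

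**Figure D3:**
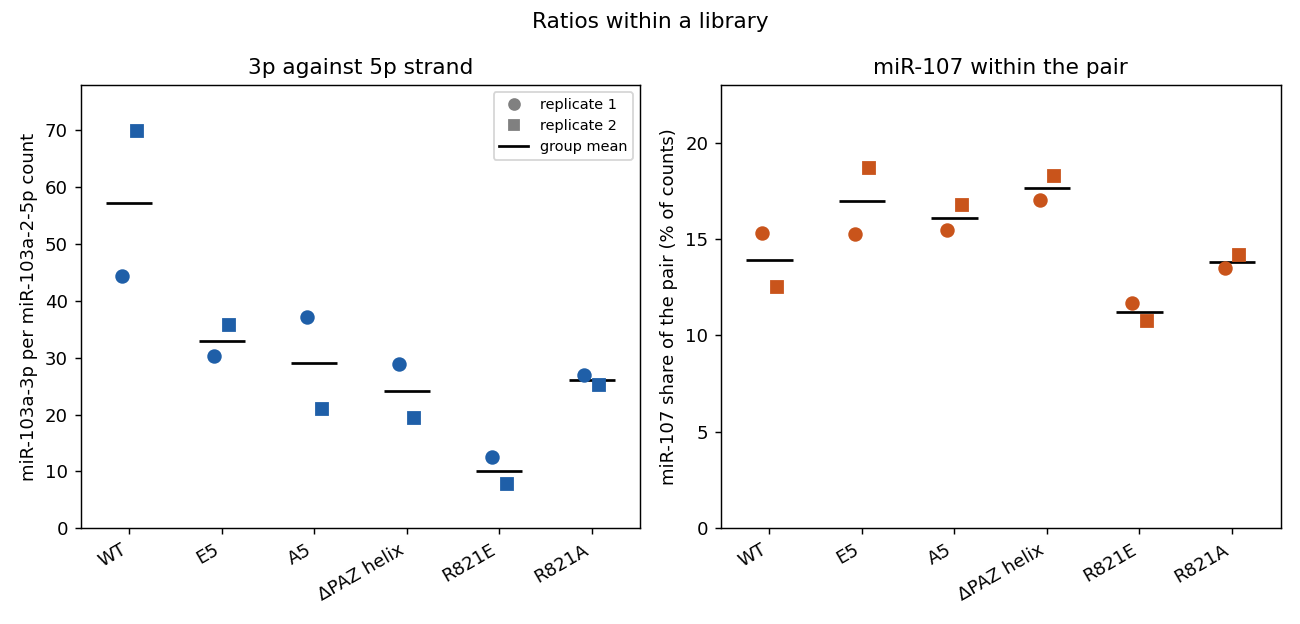
Ratios within each of the 12 libraries: counts of miR-103a-3p per count of miR-103a-2-5p (left) and miR-107 as a percent of the summed counts of the pair (right). Points are libraries, circles replicate 1 and squares replicate 2, and lines are group means. The left ratio is highest in WT (44.4 and 69.9) and lowest in R821E (12.5 and 7.73), while the share of miR-107 stays between 10.8% and 18.7%. How many other hairpins have this order of the left ratio was not counted.

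The wider miR-15 and miR-107 group, whose members share the AGCAGC run and many targets such as cyclins and BCL2, parted in R821E. Of its 9 tested entries 5 rose against WT and 2 fell, the falls being miR-103a-3p and miR-107, where 23.8% of all entries were called higher and 24.1% lower. The 7 others are 5p strands, and their median log2 fold change was 0.67, against -0.10 over all 374 entries. Over all entries the strands parted too: those named 5p had a median of 0.17 (50 of 174 higher, 28 lower) and those named 3p a median of -0.58 (18 of 148 higher, 56 lower). miR-16-5p, its most abundant entry, rose from 12004 ± 497 to 19074 ± 685 CPM (0.67 ± 0.115, edgeR, adjusted p = 5.01e-04). miR-15b-5p rose by 0.52 and miR-15a-5p by 1.00 (adjusted p = 0.0186 and 4.54e-04, edgeR). On the spike-in scale 0 of the 9 were called higher and 5 lower, 3 of them among the 7 others, whose median was -0.63. Of all 374 entries 60.4% were called lower on that scale, at a median of -1.38. The rise was thus seen relative to the other miRNAs and was not called relative to the spike-ins. On the spike-in scale miR-16-5p (-0.63), miR-15b-5p (-0.78) and miR-15a-5p (-0.28) all had values nearer 0 than the 2 members. Against R821A 4 of the 7 were called higher and 0 lower, at a median of 0.85, where 21.9% of all entries were called higher. With spike-in library sizes 0 of the 7 were higher and 2 lower, at a median of -0.12, where 48.9% of all entries were lower, at a median of -1.02. In E5, A5, ΔPAZ helix and R821A against WT none of the 9 passed on the TMM scale, where 9.09%, 0.267%, 0.267% and 3.21% of all entries did. On the spike-in scale 2, 1, 1 and 0 of the 9 were lower, against 27.3%, 14.7%, 13.1% and 4.28% of all entries.

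**Figure D4:**
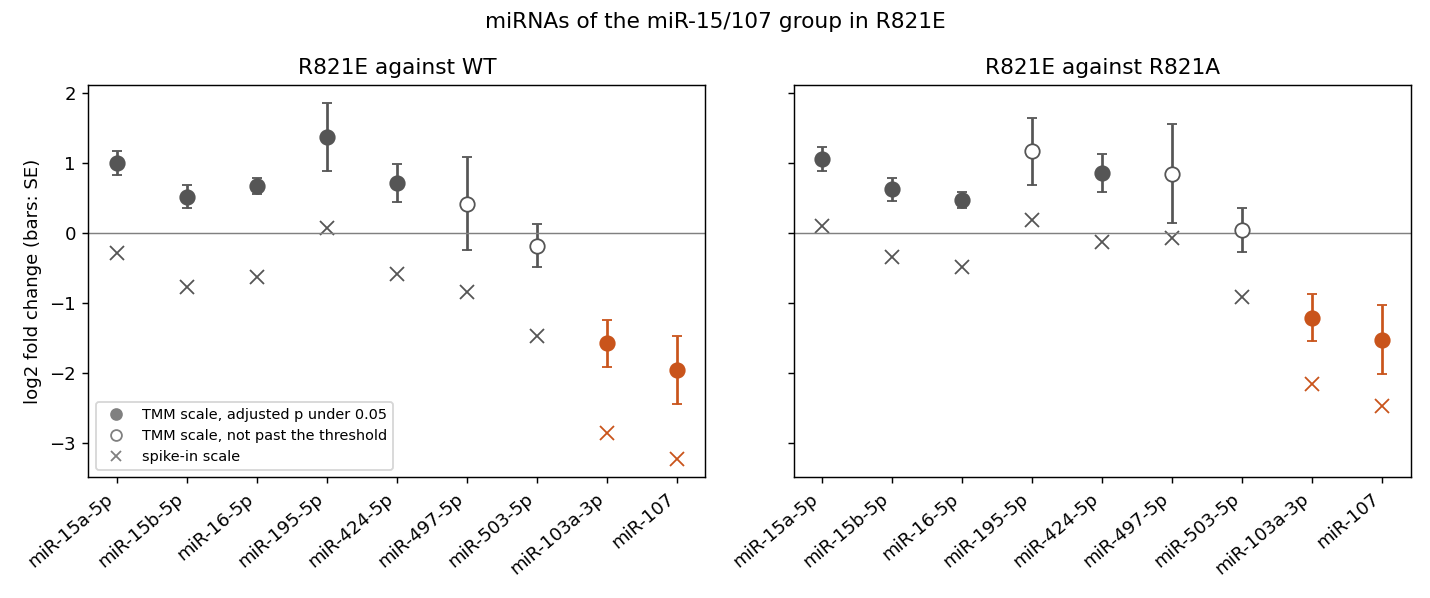
Log2 fold changes of the 9 tested entries of the miR-15 and miR-107 group in R821E against WT (left) and against R821A (right). Circles are edgeR estimates on the TMM scale with SE, filled where the adjusted p is under 0.05, and crosses are estimates on the spike-in scale. miR-103a-3p and miR-107 (orange) lie lowest on both scales, at -1.58 and -1.95 against WT on the TMM scale, while 5 of the 7 others are called higher there.

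The let-7 family also represses DICER1, and its 9 entries here (let-7a to let-7i 5p strands and miR-98-5p) were set beside the pair. On the TMM scale 6 fell and 0 rose in R821E against WT, with a median of -0.86 (all entries -0.10, 24.1% called lower). In R821A 6 fell, with a median of -0.90 (all entries -0.02, 2.94% called lower), and neither miR-103a-3p nor miR-107 passed there. let-7i-5p, for instance, had -1.02 in R821E and -0.97 in R821A, let-7f-5p -0.86 and -0.90, let-7a-5p -0.44 and -0.74, and let-7b-5p, which passed in neither, 0.27 and -0.23. In E5 5 fell, where 6.68% of all entries were called lower, and in A5 and ΔPAZ helix none passed. On the spike-in scale more passed, with 9 lower in R821E, 7 in E5, 6 in A5, 4 in ΔPAZ helix and 6 in R821A. In the same order, 60.4%, 27.3%, 14.7%, 13.1% and 4.28% of all entries were called lower there. Between R821E and R821A the 9 had a median of 0.04 and 1 was higher, let-7b-5p (0.50), where 21.9% of all entries were called higher. By contrast, both miR-103a-3p (-1.21) and miR-107 (-1.52) were lower there. With spike-in library sizes 6 of the 9 were lower in that comparison, where 48.9% of all entries were called lower. Single let-7 entries differ at few bases and are uncertain one by one.

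The entries whose levels ran most like those of the pair were taken by Pearson's r of log2 (CPM + 1) over the 12 libraries, among the 249 other entries averaging 100 CPM or more. The points share libraries and depth, and the values are descriptive. For miR-103a-3p they were miR-107 (r = 0.93), miR-130a-3p (0.90), miR-22-3p (0.89), miR-345-5p (0.88) and miR-203a-3p (0.86). For miR-107 they were miR-186-5p (0.94), miR-22-3p (0.94), miR-27a-3p (0.94), miR-103a-3p (0.93) and miR-24-3p (0.93). miR-22-3p, the entry in both lists beside the pair, had a log2 fold change of -1.99 in R821E against WT and -1.46 against R821A. These were close in size to those of miR-107. The other entries named here ran from -0.52 (miR-130a-3p) to -1.52 (miR-27a-3p) against WT. Against R821A they ran from -0.56 (miR-203a-3p) to -1.39 (miR-27a-3p). All were picked over libraries that include R821E, so a shared fall there is partly built in.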

How the data were processed

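The authors deposited unnormalised read counts, a whole number for each miRNA or spike-in entry of a library. Per the labels' protocols, RNA was isolated with TRIzol, made into AQ-seq libraries and sequenced on a NovaSeq instrument. Per the submitters' processing notes, the tools were BWA, bedtools and cutadapt and the builds mm10 and hg38. The sources used here do not give their versions and roles or the treatment of reads matching several entries. Library sizes and tests leave out the 30 spike-in entries.

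The test was the quasi-likelihood test of edgeR 4.0.16 under R 4.3.3 (robust, TMM factors, filterByExpr), a single fit over the 12 libraries, with 6 residual degrees of freedom. Of 1346 miRNA entries 374 were tested, both members among them, and p-values were adjusted over all 374 by the Benjamini-Hochberg method at 0.05. SE are the fold change divided by the root of F. The spike-in scale replaces the library size by the summed spike-in counts. Ratios were tested with limma 3.58.1 (trend, robust) on log2 with a pseudocount of 0.5, over same-seed pairs with a mean of at least 20 counts and over hairpins with at least 10 in both strands. Single values were compared by exact permutation. The scripts were tested on simulated data. Replicates were checked for duplicated libraries (chi-square per degree of freedom 3.83 to 25.6). DESeq2 1.42.0, limma-voom, other scalings and filters, the replicate block and leaving out each library were alternatives.

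Named entries are the 2 members, their hairpins' other entries, the most abundant of each list and the 5 entries most like each member. Members and lists were chosen with earlier results of these data known. miR-103a-1-5p, miR-103b and miR-646 were not analysed here.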

Additional observations from a re-analysis of the deposited data

How the results depend on the processing

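Of 352 alternative values over the results given, 310 kept their direction and their side of the threshold, 17 lost a call, 11 gained one and 14 changed sign. The fall of miR-103a-3p in R821E against WT passed under all 14 alternatives to the TMM fit (other scalings, filters, tests and left-out libraries) and that of miR-107 under 13 of 14, with the exception of leaving out R821E replicate 2, where the lone library is assumed to vary like the other groups. Spike-in library sizes gave miR-103a-3p a call in ΔPAZ helix, A5 and E5 (-1.41, -1.35 and -1.25), and testing without a filter did so in A5 and ΔPAZ helix (-0.95 and -0.98); the cause of the latter was not tested. limma-voom ended the call of miR-107 between R821E and R821A (-1.50).

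Leaving out each library in turn moved the log2 fold change of miR-103a-3p from -1.18 to -0.14 in E5, -1.28 to -0.39 in A5, -1.33 to -0.45 in ΔPAZ helix (called without WT replicate 2), -1.95 to -1.01 in R821E, -0.74 to 0.16 in R821A, -0.28 to 0.63 in E5 against A5, and -1.39 to -0.97 in R821E against R821A. For miR-107 the ranges were -1.08 to 0.45, -1.19 to 0.041, -1.09 to 0.14, -2.44 to -1.15, -0.91 to 0.32, -0.38 to 0.89 and -1.80 to -1.25. For the ratio of miR-107 to miR-103a-3p they were -0.17 to 0.16 in R821A and -0.087 to 0.26 in E5 against A5, and for the ratio of miR-103a-2-5p to miR-103a-3p -0.62 to 0.17 in E5 against A5 and 1.07 to 1.76 in R821E against R821A. With spike-in library sizes, left-out libraries (added after seeing the data) gave miR-103a-3p -1.76 to -0.79 in E5, -1.70 to -0.90 in A5, -1.76 to -0.95 in ΔPAZ helix, -1.04 to -0.24 in R821A and -0.40 to 0.47 in E5 against A5. miR-107 had -1.65 to -0.20, -1.61 to -0.47, -1.51 to -0.37, -1.22 to -0.077 and -0.50 to 0.73 there.

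Replicate numbers did not pair the libraries throughout: same-numbered deviations correlated above 0.1 in 2 of 15 pairs of groups. The values ran from -0.52 (E5 with WT) to 0.45 (R821A with WT), so some libraries of different groups deviated alike or oppositely. What such libraries share was not tested. With the replicate block, miR-103a-3p in R821E against WT had -1.57 and miR-107 -1.95, and the block changed no call of the TMM fits or of the 2 ratios; it was not run on the spike-in scale. Depth limits miR-107 in R821E (14 and 28 counts) and miR-103a-2-5p most.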
